A study of Mus musculus with 18 samples.

Results

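Hemoglobin transcripts were followed in brain tissue through 5 genes, chosen by their symbols from the 55401 genes of the count table: the adult alpha-chain genes Hba-a1 and Hba-a2, the adult beta-chain genes Hbb-bs and Hbb-bt, and Alas2. All 5 were matched by gene identifier and read in each of the 18 libraries. The regions sampled were the BNST (bed nucleus of the stria terminalis), a limbic forebrain nucleus, and the prelimbic mPFC (medial prefrontal cortex). All mice were adult wild-type C57BL/6 males, and each group held 3 libraries: control mice with neither injection (called sham-treated in the figure legends of the study), mice taken 24 h after formalin in the hind paw (acute pain) and mice taken 72 h after complete Freund's adjuvant (CFA) in the hind paw (persistent pain). Since the agent and the interval before collection both changed from one pain group to the other, their parts cannot be told apart. The brains were cut in ice-cold saline and both regions of each brain were dissected, and whether the vessels were rinsed beforehand is not given in the sources used here.

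Red blood cells carry oxygen on hemoglobin, which is built of alpha and beta chains around heme. Young red cells and reticulocytes hold the globin messages in great excess over other messages, and low levels of adult globin messages have also been described in neurons and glia. Alas2 encodes the erythroid form of 5-aminolevulinate synthase, the first enzyme of heme synthesis, whereas Alas1 encodes the form used in other tissues. Dissected brain keeps some of its blood, so globin messages in a brain library can come from blood cells as well as from brain cells. In bulk tissue, more cells of a type and more RNA per cell cannot be told apart.

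Hba-a1 (ENSMUSG00000069919.7) lies on chr11:32283511-32284465 and Hba-a2 (ENSMUSG00000069917.7) on chr11:32296489-32297298, both on the plus strand of GRCm38. Hbb-bs (ENSMUSG00000052305.6) lies on chr7:103826534-103828096 and Hbb-bt (ENSMUSG00000073940.3) on chr7:103812524-103813996, both on the minus strand. Alas2 (ENSMUSG00000025270.13) lies on chrX:150547375-150570638 on the plus strand and shares 311 exon bases with Apex2, a DNA repair gene on the minus strand. Alas2 counts are uncertain to that extent, since whether the counting used strand is not given in the sources used here. Apex2 was between 5.83 and 9.29 counts-per-million (CPM) in every library.

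The globin genes of each chain are near copies, and this decides what their counts can tell apart. The coding sequences of Hba-a1 and Hba-a2 are both 429 bases long and differ at 1 base (99.8% identical), at coding position 381. Those of Hbb-bs and Hbb-bt are both 444 bases long and also differ at 1 base (99.8% identical), at coding position 417. The 60-base coding stretches around these sites (GRCm38; for Hba-a1 chr11:32284313-32284372, for Hba-a2 chr11:32297130-32297189, for Hbb-bs chr7:103826665-103826724 and for Hbb-bt chr7:103812656-103812715) show how little separates the copies, and the capital marks the differing base.
Hba-a1: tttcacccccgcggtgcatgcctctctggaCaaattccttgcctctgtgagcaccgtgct
Hba-a2: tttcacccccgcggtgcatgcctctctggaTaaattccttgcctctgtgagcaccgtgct
Hbb-bs: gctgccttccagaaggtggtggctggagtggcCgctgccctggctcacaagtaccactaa
Hbb-bt: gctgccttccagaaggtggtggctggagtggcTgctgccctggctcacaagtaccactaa

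Of all windows of 150 bases along the transcript, 48.4% in Hba-a1 and 65.7% in Hba-a2 occur without a change in the other alpha gene. The shares were 58.7% in Hbb-bs and 50.7% in Hbb-bt, and no window of Alas2 was shared with the other members. How the counting treated reads that match several places is not given in the sources used here, so the split between the copies of 1 chain is uncertain. The sum over the 4 globin genes is given as well, but it would be too low if such reads were left out.

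The start regions of the members differ in kind and are shown as a description, and their part in the levels was not tested. The 120 bases upstream of the RefSeq start (GRCm38.p6) were searched on both strands for 4 motifs, and capitals mark the matches. The Klf1 motif was read as the letters CACCC. The motif called the CAT box below was read as CCAAT. For the Gata1 motif the search took AGATAA and, as its other form, TGATAA. The TATA box was read as TATAA. No letters of one motif overlapped another in the printed windows. The windows are chr11:32283552-32283671 for Hba-a1, chr7:103827929-103828048 for Hbb-bs, chr7:103813924-103814043 for Hbb-bt and chrX:150547297-150547416 for Alas2, each on the strand of its gene, and some transcript models begin further upstream.
Hba-a1: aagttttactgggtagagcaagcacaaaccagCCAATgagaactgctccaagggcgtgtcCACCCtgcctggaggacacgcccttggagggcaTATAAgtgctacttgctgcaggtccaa
Hbb-bs: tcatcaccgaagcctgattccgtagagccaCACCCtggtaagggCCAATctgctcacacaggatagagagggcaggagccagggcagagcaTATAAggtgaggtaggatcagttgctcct
Hbb-bt: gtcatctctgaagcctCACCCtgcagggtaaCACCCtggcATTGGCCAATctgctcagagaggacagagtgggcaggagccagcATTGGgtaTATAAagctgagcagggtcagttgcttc
Alas2: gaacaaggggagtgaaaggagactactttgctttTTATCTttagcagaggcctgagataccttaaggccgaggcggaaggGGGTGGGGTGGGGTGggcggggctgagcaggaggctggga

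All 4 globin windows held the Klf1 motif, the CAT box and the TATA box. The window of Hba-a2 shared an unbroken run of 297 of 300 bases around the start with that of Hba-a1, whereas the longest run shared by Hbb-bs and Hbb-bt was 14 bases. Alas2 held 3 matches to the Klf1 motif and 1 to the Gata1 motif, all on the opposite strand, and neither of the boxes. Of 32851 promoter windows of the same length, 31.7% held the Klf1 motif, 21.3% the CAT box, 7.63% the Gata1 motif and 11.8% the TATA box, so single matches are common and describe the windows only.

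The libraries held 14781315 to 23408503 counts, and the 1376 counts of the 4 globin genes took a share of 4.23 CPM (before scaling by TMM factors) over the 18 libraries. Intervals of shares and upper limits for counts of 0 cover counting error only, whereas intervals of fold changes come from the fit across libraries and include the spread between them. Of the 10 genes listed for GABAergic and BNST neurons, 6 were higher and 2 lower in the BNST than in the mPFC of control mice, and the 7 tested genes listed for cortical pyramidal neurons were all lower (edgeR quasi-likelihood test, Benjamini-Hochberg adjusted p under 0.05 and a log2 fold change beyond 0.5 in size), and 26.6% of all genes were called in either direction. BNST formalin replicate 1 stood apart, with 576 CPM summed over the 8 cortical pyramidal genes against 61.4 to 200 CPM in the other 8 BNST libraries. The column names of the supplementary tables hold an L number, read here as the sequencing lane, and no run is given with it. By this number BNST formalin replicate 1 was the only library of lane 3. BNST control replicates 1 and 2 were of lane 1, and the remaining 15 libraries of lane 2.

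The 5 members were low, and their order by level per length was Hbb-bs, Hba-a1, Hbb-bt, Alas2 and Hba-a2. This order holds for the counts as given, since the treatment of reads that match several globin copies is not known. In transcripts-per-million (TPM), which divides by exon length, the medians over the 18 libraries were 6.16 for Hbb-bs, 3.26 for Hba-a1, 1.16 for Hbb-bt and 1.09 for Alas2, and Hba-a2 had a median of 0. Hbb-bt and Alas2 lay within each other's spread. The highest TPM values were 74.9 for Hbb-bs, 30.3 for Hba-a1, 11.2 for Hbb-bt, 2.48 for Alas2 and 0.986 for Hba-a2.

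Hbb-bs, the more abundant beta-chain gene, had 846 counts in all. In the BNST its level was 0.247, 1.98 and 0.619 CPM in control replicates 1 to 3, 14.2, 1.19 and 1.57 CPM after formalin, and 1.38, 0.985 and 1.08 CPM after CFA. In the mPFC it was 0.736, 1.09 and 2.18 CPM in the control libraries, 11.1, 2.34 and 0.958 CPM after formalin, and 1.24, 1.52 and 0.901 CPM after CFA. Replicate 1 of the formalin group stood far above all other libraries in both regions, and the remaining formalin libraries overlapped the control and CFA libraries.

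Hba-a1, the alpha-chain gene that took nearly all alpha counts, had 387 counts in all. Its level in the BNST was 0.0618, 1.19 and 0.495 CPM in control, 6.07, 0.867 and 1.02 CPM after formalin, and 1.21, 0.69 and 0.376 CPM after CFA. In the mPFC it was 0.525, 0.741 and 1.25 CPM in control, 3.65, 0.344 and 0.411 CPM after formalin, and 0.177, 1.46 and 0.322 CPM after CFA. The same formalin libraries were again the highest in their regions, while in the mPFC the other 2 formalin libraries lay below all 3 control libraries. The lowest value, in BNST control replicate 1, rested on 1 count.

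Hbb-bt, the other beta-chain gene, had 134 counts, of which 33 were in BNST formalin replicate 1 (1.94 CPM) and 43 in mPFC formalin replicate 1 (1.94 CPM). The other 16 libraries held 0 to 9 counts (up to 0.51 CPM). It was at 0 in BNST control replicate 1, which allows a level of up to 0.185 CPM, and in mPFC CFA replicate 1, which allows up to 0.177 CPM. Hba-a2 had 9 counts in 5 libraries, with 2 in BNST formalin replicate 1, 4 in mPFC formalin replicate 1 and 1 in each of 3 others. In the 13 libraries at 0 the count allows between 0.141 and 0.206 CPM. Both genes were too low for the test across genes, in which Hbb-bs, Hba-a1 and Alas2 (3 of the 5 members) took part.

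Alas2, the erythroid enzyme, had 269 counts. Its level in the BNST was 0.68, 0.964 and 0.991 CPM in control, 1.47, 0.651 and 1.28 CPM after formalin, and 0.552, 0.69 and 1.13 CPM after CFA. In the mPFC it was 0.525, 0.642 and 0.491 CPM in control, 1.35, 0.481 and 0.753 CPM after formalin, and 0.355, 0.992 and 0.579 CPM after CFA. Formalin replicate 1 was again the highest library of each region, but by a far smaller margin than for the globin genes, and BNST formalin replicate 3 came close to it.

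**Figure D1:**
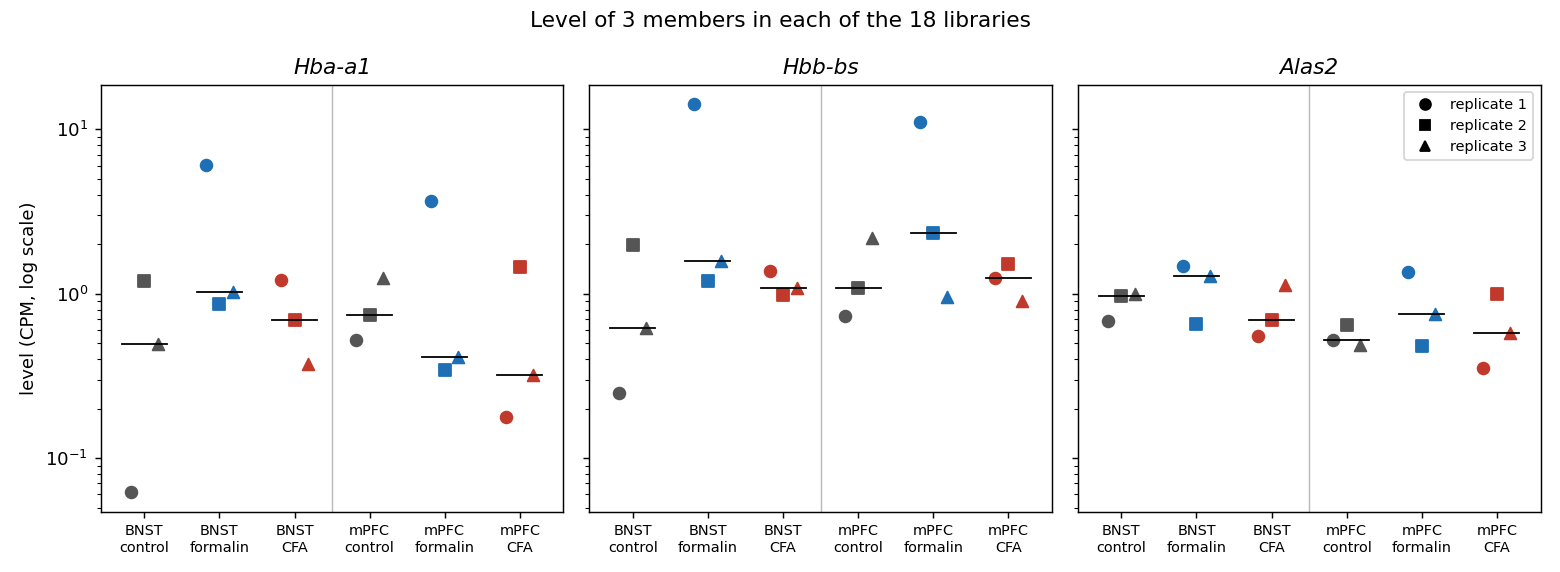
Level of Hba-a1, Hbb-bs and Alas2 in CPM (log scale) in each of the 18 libraries, by region and group. Points are libraries, their shape gives the replicate number and black lines are group medians. Formalin replicate 1 lies at 14.2 and 11.1 CPM of Hbb-bs, while the other libraries stay at or below 2.34 CPM.

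Summed over the 4 globin genes, BNST formalin replicate 1 held 379 counts (22.3 CPM) and mPFC formalin replicate 1 held 375 counts (16.9 CPM). The other 16 libraries ran from 0.309 to 3.74 CPM with a median of 1.899 CPM, so the formalin libraries were 11.8-fold and 8.89-fold above that median. Together they took 754 of the 1376 globin counts (54.8%), 55 of the 269 Alas2 counts (20.4%) and 12.1% of all counts. As shares of all counts, globin made 23.8 CPM before scaling in the first (exact 95% interval 21.4 to 26.3) and 16.02 in the second (14.4 to 17.7), against 0.321 to 3.89 elsewhere.

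The spread between libraries was wider than counting error for Hbb-bs, Hba-a1 and Alas2, also without formalin replicate 1. The chi-square of the counts against the library totals, divided by its degrees of freedom, is near 1 where libraries differ by counting error alone. It was 103.5 for Hbb-bs, 33.5 for Hba-a1, 15.6 for Hbb-bt and 2.82 for Alas2 over the 18 libraries. Without the 2 libraries of formalin replicate 1 it was 4.19, 4.53, 1.72 and 2.17, and for Hba-a2 it was 1.81 with and 0.867 without them.

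Both high libraries carried the same number in the column names of the supplementary tables. That number is read here as the animal, which the names do not state. By this reading 8 mice gave a library of each region. Control numbers were 1, 2 and 4 for BNST libraries but 2, 3 and 4 for mPFC libraries. This is at odds with the 3 brains a group, each giving both regions, that the study describes. Residuals from the group means correlated at 0.01 between the formalin replicate 1 libraries, so their pairing rests on the number alone. Formalin mouse 1 had 14.2 CPM of Hbb-bs in the BNST and 11.1 CPM in the mPFC, the highest of the 8 mice in both. Among the other 7 mice, a higher Hbb-bs level in the BNST did not go with a higher one in the mPFC: control mouse 2 had 1.98 and 0.736 CPM, and control mouse 4 had 0.619 and 2.18 CPM. Over the 8 mice, log2 CPM of Hbb-bs in the 2 regions had a Pearson r of 0.72 (exact permutation p = 0.241, two-sided) and a Spearman rho of −0.071 (exact permutation p = 0.882). Without the mice farthest from the median BNST level, formalin mouse 1 and control mouse 4, r was −0.58, so the positive relation did not hold without both.

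For Hba-a1, r was 0.54 (exact permutation p = 0.228) and rho 0.14 (exact permutation p = 0.752), and r was −0.82 without formalin mouse 1 and CFA mouse 3. For Alas2, r was 0.59 (exact permutation p = 0.118) and rho 0.74 (exact permutation p = 0.0458), and r was −0.067 without formalin mouse 1 and CFA mouse 1. Adjusted over these 3 relations, the p of r was 0.241 for each gene, and that of rho was 0.138 for Alas2 and 0.882 for both globin genes.

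**Figure D2:**
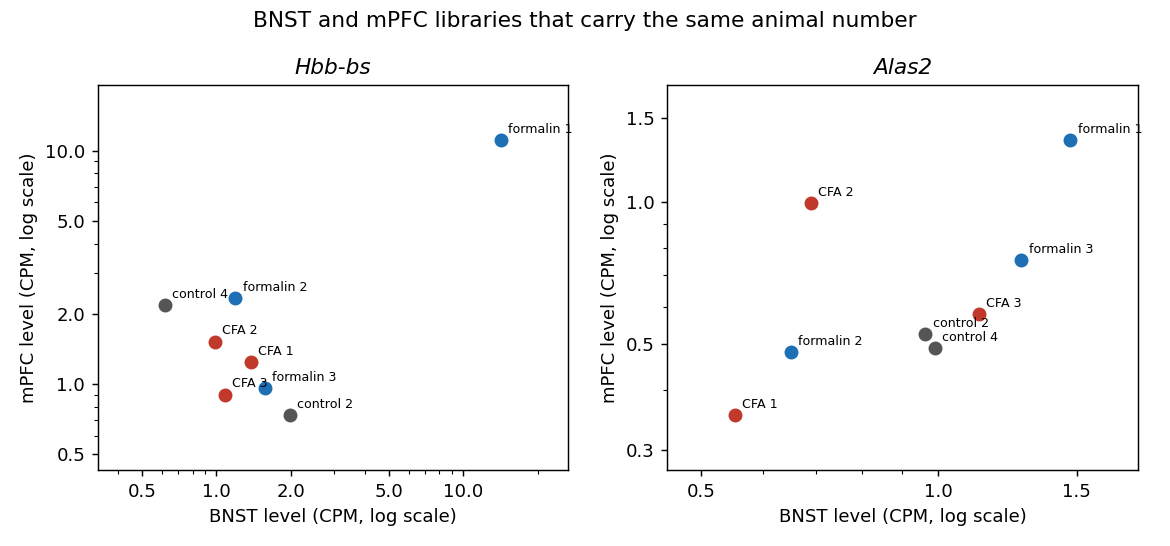
Level of Hbb-bs (left) and Alas2 (right) in the BNST (horizontal axis) and mPFC (vertical axis) library of the same animal number, in CPM on log scales, for 8 mice. The animal number is a reading of the column names, which do not state its meaning. Formalin mouse 1 is highest on both axes in both panels, and for Hbb-bs the other 7 mice lie at or below 2.34 CPM on both axes.

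The mix of globin messages was read as shares of the globin counts. Alpha-chain genes took 28.8% of all globin counts (exact 95% interval 26.4 to 31.2%), with a range over libraries from 11.4% in mPFC formalin replicate 2 to 44% in mPFC CFA replicate 2. The interval of 14 of the 18 libraries held the pooled share, and the chi-square divided by degrees of freedom was 2.33, against 0.929 for the Hbb-bt share that follows. The share was 27.7% (23.3 to 32.5%) in BNST formalin replicate 1 and 22.7% (18.5 to 27.2%) in mPFC formalin replicate 1, against 33.1% (29.4 to 37%) in the other 16 libraries together, so the interval of the mPFC library lay below theirs. Hbb-bt took 13.7% of the beta-chain counts (11.6 to 16%), and all 18 intervals held that share. It was 12.04% in BNST formalin replicate 1, 14.8% in mPFC formalin replicate 1 and 13.9% in the other 16 together. From 0.309 to 22.3 CPM of summed globin, the mix of beta genes thus stayed within counting error. That error was wide where counts were low, from 0 to 60.2% for the 4 beta-chain counts of BNST control replicate 1.

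Alas2 did not keep such a constant share. It made 16.4% of the summed Alas2 and globin counts over all libraries, but 6.19% (4.04 to 9%) in BNST formalin replicate 1 and 7.41% (5.05 to 10.4%) in mPFC formalin replicate 1, against 25.6% (22.7 to 28.7%) in the other 16 together and 68.8% (41.3 to 89%) in BNST control replicate 1. The intervals of 12 of the 18 libraries held the pooled share.

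**Figure D3:**
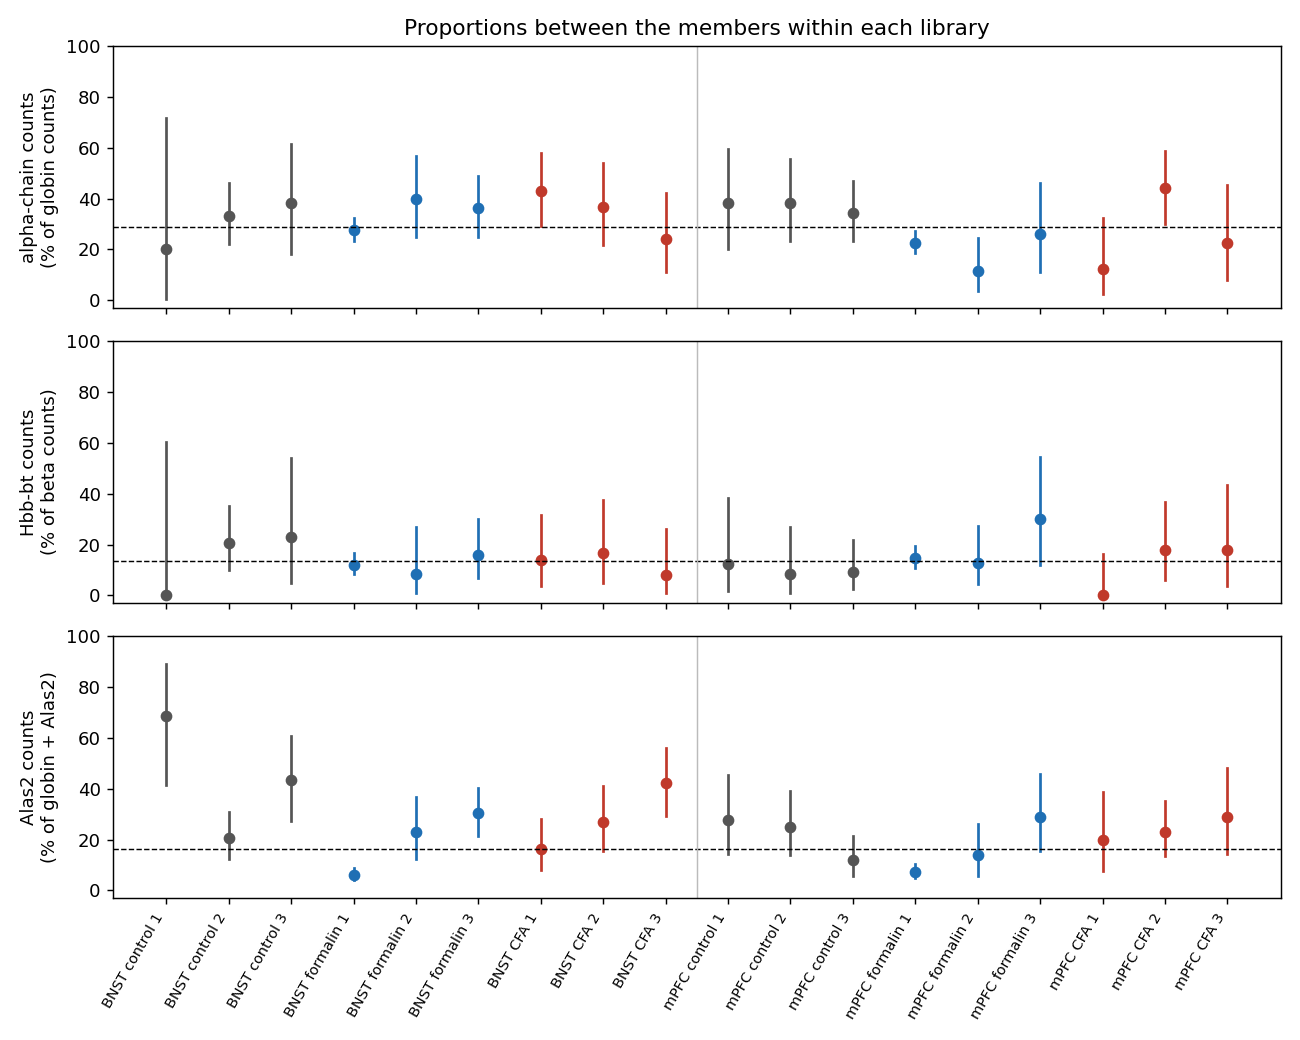
Share of alpha-chain counts among globin counts (top), of Hbb-bt among beta-chain counts (middle) and of Alas2 among Alas2 plus globin counts (bottom) in each library, in percent. Points are libraries, vertical lines exact 95% intervals for counting error, and dashed lines the pooled shares of 28.8%, 13.7% and 16.4%. The intervals cross the dashed line in 14, 18 and 12 of 18 libraries.

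**Figure D4:**
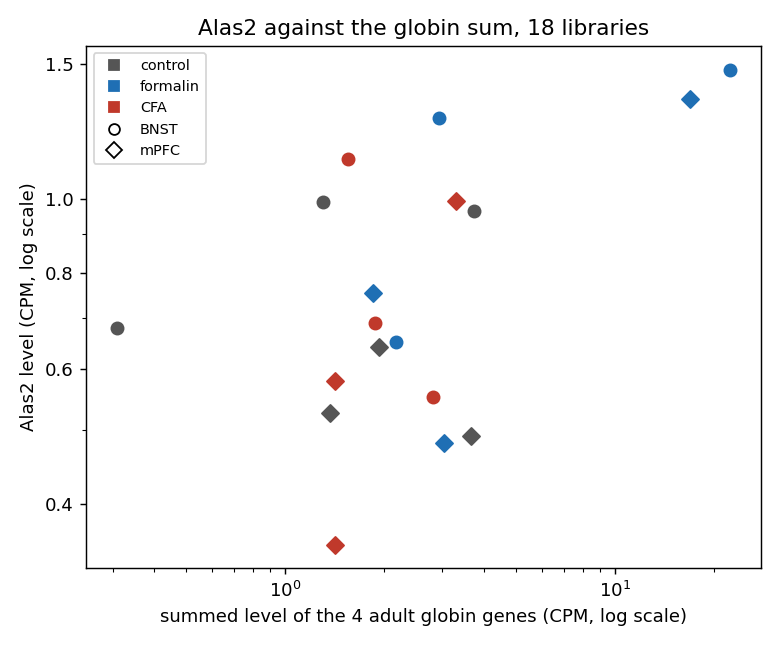
Alas2 level against the summed level of the 4 adult globin genes, both in CPM on log scales, for the 18 libraries. Colors give the group and symbols the region. The formalin replicate 1 libraries lie at 22.3 and 16.9 CPM of globin with 1.47 and 1.35 CPM of Alas2, at the upper end of an Alas2 range that starts at 0.355 CPM.

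Formalin was compared with control to ask whether the members differed 24 h after the injection. The mechanical allodynia that the study reports after formalin had passed by then. In the BNST the means were 5.66 ± 7.40 CPM after formalin and 0.95 ± 0.915 CPM in control for Hbb-bs, 2.65 ± 2.96 and 0.583 ± 0.57 CPM for Hba-a1, and 1.13 ± 0.43 and 0.878 ± 0.172 CPM for Alas2 (SD, n = 3 libraries a group). Log2 fold changes were 2.52 (SE 1.06) for Hbb-bs, 2.12 (SE 1.07) for Hba-a1 and 0.36 (SE 0.42) for Alas2, and the groups overlapped for each. By edgeR's quasi-likelihood test 0 of the 3 tested members passed, against 0.3% of all 18994 genes tested. By edgeR 1 member, Hbb-bs, was at an unadjusted p under 0.05 (adjusted p of edgeR 0.214). DESeq2 and limma-voom called 0, with 2 and 0 members at an unadjusted p under 0.05. DESeq2 gave no adjusted p for Hba-a1 and Alas2 here, so it could not have called them. Without both libraries of formalin mouse 1, a choice made after seeing the data, the log2 fold changes were 0.53 for Hbb-bs, 0.67 for Hba-a1 and 0.15 for Alas2.

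In the mPFC the means were 4.80 ± 5.51 CPM after formalin and 1.33 ± 0.754 CPM in control for Hbb-bs, 1.47 ± 1.89 and 0.84 ± 0.374 CPM for Hba-a1, and 0.862 ± 0.445 and 0.553 ± 0.0794 CPM for Alas2 (SD, n = 3). Log2 fold changes were 1.89 (SE 1.01), 0.90 (SE 1.03) and 0.68 (SE 0.45), with overlapping groups. The edgeR test called 0 members, against 0.269% of all genes, and 0 were at an unadjusted p under 0.05 by edgeR, DESeq2 or limma-voom. The adjusted p of edgeR was 0.432 for Hbb-bs, 0.781 for Hba-a1 and 0.545 for Alas2. Without both libraries of formalin mouse 1 the log2 fold change was 0.31 for Hbb-bs and 0.15 for Alas2, and it turned to −1.14 for Hba-a1. All 9 mPFC libraries came from lane 2, whereas in the BNST the high library was the only one of lane 3.

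CFA was compared with control to ask whether the members differed 72 h after that injection (persistent pain). After CFA Hbb-bs averaged 1.15 ± 0.206 CPM in BNST libraries and 1.22 ± 0.311 CPM in mPFC libraries, that of Hba-a1 0.76 ± 0.424 and 0.651 ± 0.7 CPM, and that of Alas2 0.789 ± 0.3 and 0.642 ± 0.323 CPM (SD, n = 3). Log2 fold changes against control in the BNST were 0.24 for Hbb-bs (95% interval −2.26 to 2.74), 0.33 for Hba-a1 (−2.17 to 2.84) and −0.14 for Alas2 (−1.06 to 0.77). In the mPFC they were −0.12 for Hbb-bs (−2.54 to 2.30), −0.38 for Hba-a1 (−2.86 to 2.10) and 0.20 for Alas2 (−0.80 to 1.20). The edgeR test called 0 members in either region, against 11.9% of all genes (BNST) and 0.632% (mPFC), and edgeR, DESeq2 and limma-voom found 0 at an unadjusted p under 0.05. The intervals of the globin genes are wide enough to hold more than a 4-fold change either way, so a smaller change was not detectable.

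Between formalin and CFA, log2 fold changes in the BNST were 2.28 for Hbb-bs (SE 1.02), 1.79 for Hba-a1 (SE 1.01) and 0.51 for Alas2 (SE 0.42). The edgeR test called 0 members against 6.87% of all genes, with 1 at an unadjusted p under 0.05, which was Hbb-bs (adjusted p of edgeR 0.15). DESeq2 called 0 with 1 at that level and limma-voom 0 with 0. In the mPFC the changes were 2.01 (SE 1.04), 1.28 (SE 1.09) and 0.48 (SE 0.46), with 0 called against 0.932% of all genes. At an unadjusted p under 0.05 edgeR and limma-voom found 0 members and DESeq2 found 1 and called 0. DESeq2 gave no adjusted p for Alas2 there. Without formalin mouse 1 the BNST changes were 0.28, 0.33 and 0.29, and the mPFC changes 0.43, −0.75 and −0.044.

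**Figure D5:**
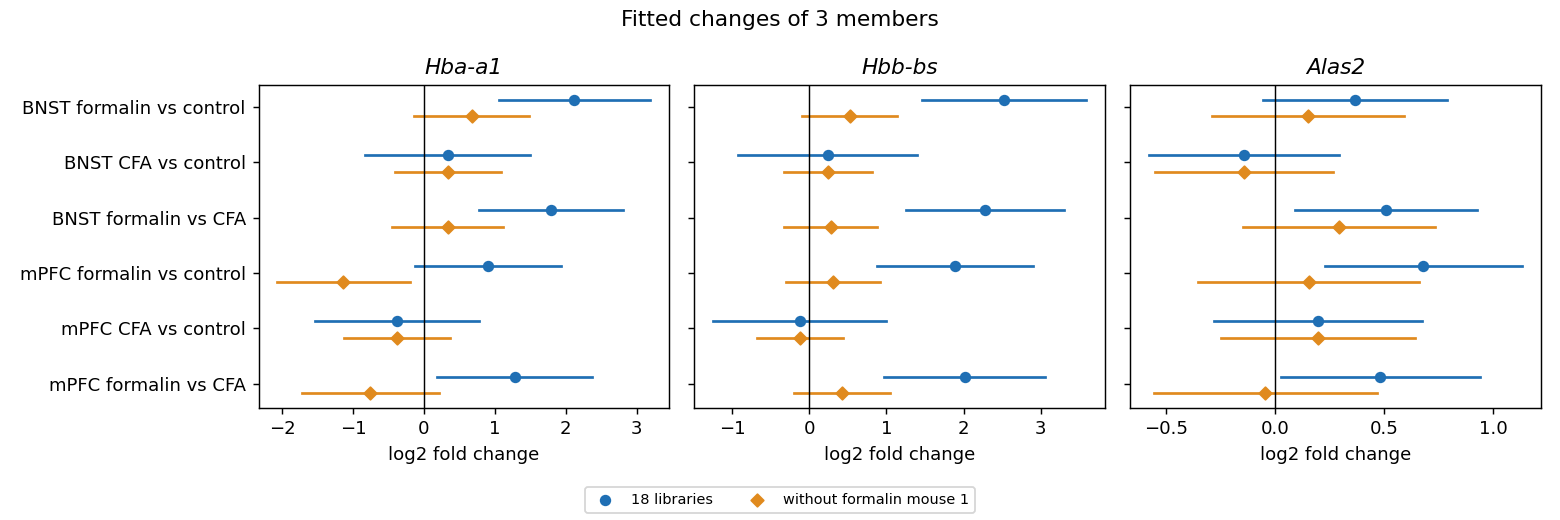
Log2 fold change of Hba-a1, Hbb-bs and Alas2 in the 6 comparisons within a region. Circles are the fit with 18 libraries, diamonds the fit without both libraries of formalin mouse 1, and bars show 1 standard error either way. For Hbb-bs, formalin against control moves from 2.52 to 0.53 (BNST) and from 1.89 to 0.31 (mPFC), while CFA against control stays near 0.24 and −0.12.

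The regions were compared to ask whether their globin content differs. In control mice the log2 fold change of BNST over mPFC was −0.46 for Hbb-bs, −0.49 for Hba-a1 and 0.66 for Alas2 (adjusted p of edgeR 0.789, 0.773 and 0.27). Alas2 was the member whose control libraries did not overlap, with 0.68 to 0.991 CPM in the BNST and 0.491 to 0.642 CPM in the mPFC. Of all genes tested, 26.6% were called in that comparison and 48.5% had control libraries that did not overlap between the regions. Averaged over the 3 treatments the changes were −0.13 for Hbb-bs (95% interval −1.45 to 1.20), 0.15 for Hba-a1 (−1.21 to 1.52) and 0.44 for Alas2 (−0.10 to 0.98), with 0 members called by edgeR against 37.2% of all genes. In both comparisons 0 members were at an unadjusted p under 0.05 by edgeR, and DESeq2 and limma-voom called 0 with 0 at that level. Leaving out mPFC formalin replicate 1 made Alas2 pass in the average over treatments (log2 fold change 0.62, adjusted p of edgeR 0.0459). With the animal number as a block Alas2 had a log2 fold change of 0.55 (adjusted p of edgeR 0.0631).

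The change after formalin differed between the regions by 0.63 on the log2 scale for Hbb-bs (95% interval −2.53 to 3.79), 1.22 for Hba-a1 (−1.98 to 4.43) and −0.32 for Alas2 (−1.61 to 0.98). The change after CFA differed by 0.36 (−3.11 to 3.84), 0.72 (−2.81 to 4.24) and −0.34 (−1.70 to 1.02). The edgeR interaction test called 0 members, against 0.158% of all genes for formalin and 4.17% for CFA. None of the 3 members was at an unadjusted p under 0.05 by edgeR, DESeq2 or limma-voom in these tests.

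Some of the other red cell genes were at or near 0, and others were well above it. Slc4a1, the anion exchanger of the red cell membrane, had 19 counts in all 18 libraries and at most 5 in a library, with 2 in each formalin replicate 1 library. Epb42, a protein of the red cell membrane skeleton, had 21 counts and Hemgn 6, and Rhag and Tspo2 had 0. Of the 17 genes listed for red cell membrane and maturation, 16 were in the table and 5 were tested, and the summed level of the list was 314 CPM in BNST formalin replicate 1 and 300.1 CPM in mPFC formalin replicate 1, within the 275 to 414 CPM and 284 to 376 CPM of the other libraries of each region. Most of that sum was Sptb, a spectrin that neurons also use, at 218 CPM on average, and Ank1, an ankyrin, had 59.1 CPM and Bpgm 47.7 CPM. In this list Ank1 was lower after formalin than after CFA in the BNST (log2 fold change −0.60, adjusted p of edgeR 0.0215; 6.87% of all genes called), Bpgm was higher in the BNST than in the mPFC over the treatments (0.64, adjusted p 4.24e-11, 37.2% of all genes called), and no other of its tested genes passed in a comparison.

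The embryonic and minor globin genes did not follow the adult ones. Hbb-bh1 and Hbb-bh2 were at 0 in all libraries, Hba-x had 1 count, Hbb-y 5, Hbq1b 30 and Hbq1a 133. Summed over these 6 genes, the level was 0.471 CPM in BNST formalin replicate 1 (0.163 to 0.993 CPM in the other 8 BNST libraries) and 0.27 CPM in mPFC formalin replicate 1 (0.265 to 0.946 CPM in the other 8). The erythroid factors Gata1 (6 counts), Klf1 (60) and Nfe2 (12) were also near 0. Of the 3 tested genes of that list, Lmo2, which brain and endothelium also use, was lower after CFA than in control in the BNST (log2 fold change −1.05, adjusted p of edgeR 4.17e-06) and higher after formalin than after CFA (0.60, adjusted p 0.0019), where 11.9% and 6.87% of all genes were called.

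Of the 3 globins listed for brain and muscle, 2 were called between the regions in control mice, where 26.6% of all genes were called. Ngb encodes neuroglobin, a neuronal oxygen-binding protein, Cygb cytoglobin and Mb myoglobin. Ngb was higher in the BNST than in the mPFC of control mice (log2 fold change 2.78, SE 0.22, adjusted p of edgeR 4.88e-08), as was Mb (1.40, SE 0.53, adjusted p 0.0448). Mb was low, at 0.846 CPM on average and 1 to 42 counts in a library. Cygb, the most abundant of them at 44.6 CPM on average, did not pass there. None of these 3 genes passed in a comparison of treatments within a region, where 0.269% to 11.9% of all genes were called.

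No gene of heme synthesis was called. Of the 12 genes listed, Alas2 included, all were tested and 0 passed in any of the 10 comparisons, with median log2 fold changes between −0.04 and 0.07. Over all genes, the share called ran from 0.158% (region difference of the formalin change) to 37.2% (BNST against mPFC over the treatments). The median over all genes lay between −0.036 and 0.035 in these comparisons. Alas1 had 46 CPM on average and Fech, which inserts the iron, 59.4 CPM, and the summed level of the list was 352 CPM in BNST formalin replicate 1 and 348 CPM in mPFC formalin replicate 1, next to 327 to 363 CPM in the other BNST and 351 to 363 CPM in the other mPFC libraries.

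Of the 7 tested genes of heme scavenging and breakdown, 3 were called in the BNST after CFA, where 11.9% of all genes were called. Of these, 2 were higher than in control, Blvra (log2 fold change 0.66, SE 0.16, adjusted p of edgeR 0.00732) and Blvrb (0.63, SE 0.19, adjusted p 0.0253), which encode the biliverdin reductases. Cd163, the hemoglobin-haptoglobin receptor of perivascular macrophages, was lower (−1.74, SE 0.32, adjusted p 0.00111). Its change after CFA differed between the regions (−2.23, adjusted p 0.00852; 4.17% of all genes called). Cd163 was highest in BNST control replicate 2, at 8.45 CPM against 2.73 CPM on average, and both results use that control group. Neither formalin against control nor formalin against CFA gave a call in this list in either region (0.269% to 6.87% of all genes called). Hmox1, the inducible heme oxygenase, was between 1.92 and 5.62 CPM in all libraries. Hp, which encodes haptoglobin, was higher in the BNST than in the mPFC of control mice (3.21, adjusted p 1.88e-05). Cd163 was also called higher there, and 26.6% of all genes were called.

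Marker lists of other blood and vessel cells were read in the libraries with high globin. Platelet genes summed to 6.78 CPM in BNST formalin replicate 1 (5.44 to 7.32 CPM in the other 8) and to 5.04 CPM in mPFC formalin replicate 1 (3.13 to 6.05 CPM), with Gp1bb and Treml1 at 0 in all libraries. Neutrophil genes summed to 2.71 CPM (2.28 to 9.16 CPM) and 3.96 CPM (1.31 to 6.62 CPM), and endothelial genes to 207 CPM (160 to 238 CPM) and 197 CPM (149 to 263 CPM). All of these lay within the range of the other libraries of the region. Lymphocyte genes summed to 10.4 CPM in the BNST library, within 5.68 to 10.4 CPM, and to 32.5 CPM in the mPFC library, above 20.7 to 31.5 CPM, and nearly all of the latter was Ighm at 32.0 CPM.

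Some marker lists of neighboring tissue were above the other libraries of the region in 1 high-globin library and not in the other. The highest Ttr level (15280 CPM) was in BNST CFA replicate 2, which had 1.87 CPM of summed globin. In mPFC formalin replicate 1 choroid plexus genes summed to 29.8 CPM against 4.64 to 9.45 CPM in the other 8 mPFC libraries, with Ttr at 17.7 CPM. Genes of fibroblasts and meninges summed to 63.9 CPM there against 29.9 to 61.6 CPM, and Slc6a13 (9.55 CPM) and Slc22a6 (6.80 CPM) were at their highest of all libraries. The other genes of that list peaked in other libraries. Slc6a13 was at 2.77 CPM and Slc22a6 at 1.24 CPM in BNST formalin replicate 1. In BNST formalin replicate 1 Slc17a7, a vesicular glutamate transporter abundant in cortex, was at 377 CPM and Neurod6 at 80.6 CPM, while choroid plexus genes, at 3089 CPM, lay within the 64.5 to 18430 CPM of the other BNST libraries. The part of these cells, of the lane and of the dissection in the globin level was not tested.

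The 10 genes whose pattern over the 18 libraries was most like that of the summed globin genes, by Pearson's r of log2 CPM after subtracting the mean of each region, were Neurod2 (r = 0.76), Neurod6 (r = 0.76), Smoc2, Itga8, Rnaseh2b, Pcsk2os1, Naip5, Rnf19a, Il16 and Gm16589 (r = 0.72), out of 15936 genes with at least 1 CPM on average. Alas2 had an r of 0.61, Ttr of 0.61, the endothelial gene Cldn5 of 0.25 and Cygb of −0.21. These values share the same libraries and are descriptions only. With group means subtracted instead, 1 of the 10 genes stayed in the list (Itga8), and with no centring 5 did.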

How the data were processed

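Messenger RNA of the BNST and the prelimbic mPFC was measured in 18 libraries, 3 in each of 6 groups defined by region and treatment in the labels. The authors deposited raw counts per gene, without normalization, from featureCounts 2.0.1, after trimming (Trimmomatic 0.39), alignment to GRCm38 (HISAT2 2.2.1) and sorting (SAMtools). Symbols and positions came from GENCODE M21, and 260 of 55401 identifiers had no symbol. Counts were analysed with edgeR 4.0.16 in R 4.3.3. Filtering with filterByExpr (minimum count 10, minimum total 15) kept 18994 genes. TMM scaled the libraries, and 1 robust quasi-likelihood model held all 18 libraries and 6 groups (12 residual degrees of freedom). Calls needed a log2 fold change beyond 0.5 in size together with an adjusted p (Benjamini-Hochberg) below 0.05, as in the methods of the study. CPM values used TMM-scaled library sizes, and log2 CPM a prior count of 2. Library totals ran from 14781315 to 23408503 counts, and a count of 0 allows up to 3 counts. The model was tested on simulated data. DESeq2 1.42.0 and limma-voom (limma 3.58.1) were alternatives, with others of normalization, filter, lane, block and left-out libraries.

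The members and all 15 gene lists were chosen with earlier results of these data known. The text names the 5 members, up to 4 genes of a list (called genes with the largest change first, otherwise the most abundant) and the 10 genes most like the globins; single red cell, erythroid, minor globin and marker genes, Slc6a13, Slc22a6, Ttr and Neurod6 were added after their values were seen. Animal numbers and lanes were read from column names of the supplementary tables, joined by equal counts over 367 genes. The names hold a digit after the region, taken as the animal, and an L number, taken as the lane, and state neither meaning. Both regions of each brain were dissected, so the same number was taken to pair BNST and mPFC libraries of 8 mice. Residuals of these pairs correlated at −0.03 to 0.17. Replicate numbers do not pair the treatments, which came from different mice. Nothing in the labels says more of the replicates than that 3 brains were taken per group. TPM used the union exon length. Shares have exact binomial (Clopper-Pearson) intervals. The results of some listed genes are not reported here.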

Additional observations from a re-analysis of the deposited data

How the results depend on the processing

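The count of 0 called members stayed at 0 in 308 of 309 settings and comparisons tried, including DESeq2, limma-voom, RLE or no normalization factors, no filter or a stricter one, fewer libraries in the fit, lane 2 alone and no minimum fold change. The exception was BNST against mPFC over the 3 treatments, where leaving out 1 library gave 0 to 1 called members (Alas2, without mPFC formalin replicate 1). DESeq2 gave no adjusted p for some members in some comparisons, so its 0 there could not have been otherwise for them. The fitted changes kept their direction in 359 of 366 other settings and comparisons. The 7 that turned were Hba-a1 in the mPFC without both libraries of formalin mouse 1 (an alternative chosen after seeing the data), at −1.14 against control and −0.75 against CFA, Alas2 in the mPFC formalin against CFA in the same setting, at −0.044, Hbb-bs in mPFC CFA against control by limma-voom, at 0.0036, Hbb-bs over regions with library size alone, at 0.011, Hba-a1 over regions in lane 2, at −0.41, and Hbb-bs in the region difference of the formalin change in lane 2, at −0.71. In lane 2 alone, BNST formalin against control was 1.18 for Hbb-bs with 1 control library left. Apart from the formalin mouse 1 and lane settings, where the libraries left out differ, the cause was not tested.

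With 1 library left out at a time, 510 of 540 fits kept direction and call. Log2 fold changes ran from −0.18 to 1.41 for Hba-a1, −0.20 to 1.39 for Hbb-bs and −0.49 to 0.057 for Alas2 in BNST CFA against control, from −1.14 to 1.33 for Hba-a1 in mPFC formalin against control, and from −1.73 to 0.080 for Hba-a1, −0.41 to 0.41 for Hbb-bs and −0.25 to 0.50 for Alas2 in mPFC CFA against control. In mPFC formalin against CFA they ran from −0.75 to 2.63 for Hba-a1 and −0.044 to 0.93 for Alas2, and between regions over the treatments from −0.33 to 0.83 for Hba-a1 and −0.79 to 0.40 for Hbb-bs. Between regions in control they ran from −1.57 to 0.023 for Hba-a1 and −1.60 to 0.078 for Hbb-bs. The region difference of the formalin change ran from −0.22 to 3.26 for Hba-a1, −1.36 to 2.22 for Hbb-bs and −0.58 to 0.21 for Alas2, and that of the CFA change from −0.17 to 1.51 for Hbb-bs and −0.69 to 0.11 for Alas2. For Hbb-bs in BNST formalin against control they ran from 0.53 without BNST formalin replicate 1 to 3.67 without BNST control replicate 2.

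Without a block, residuals from the group means correlated at −0.19 to 0.31 between libraries of the same replicate number and region (above 0.1 in 4 of 18 pairs). With the replicate number as a block, 0 members were called and Hbb-bs in BNST formalin against control was 1.998. The animal number as a block, for the region comparisons, also called 0. The level of BNST formalin replicate 1 over the median of 16 libraries was 11.8 in CPM, 12.96 in TPM and 12.8 as a share of all counts, and the alpha share was 33.1% without formalin mouse 1.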

Other observations

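Of 14 endothelial genes, 7 were lower in the BNST than in the mPFC of control mice by edgeR, among them Erg (log2 fold change −0.92, adjusted p 0.0239), Esam (−0.85, adjusted p 0.0059), Cdh5 (−0.84, adjusted p 0.0152) and Tie1 (−0.80, adjusted p 0.0221), and 26.6% of all genes were called in that comparison in either direction. Over the 3 treatments 1 of the 14 was higher (Slc2a1) and 2 were lower (Tek and Esam) in the BNST, against 37.2% of all genes called. Slc2a1, the glucose transporter of brain endothelium, was higher in the BNST than in control both after formalin (0.59, adjusted p of edgeR 0.0399) and after CFA (0.63, adjusted p 0.000608), and these comparisons share their control libraries. The other 13 endothelial genes were not called in either, against 0.3% and 11.9% of all genes. Slc2a1 was highest in BNST CFA replicate 2 (104 CPM), the library in which Ttr, a choroid plexus gene, was also highest, and the median log2 fold change of the 12 choroid plexus genes was 4.01 after formalin and 3.70 after CFA in the BNST, with 0 and 1 called. The part of choroid plexus in the Slc2a1 level was not tested. Of 10 mural cell genes, 2 were lower after CFA in the BNST (11.9% of all genes called), Pdgfrb (−0.60, adjusted p of edgeR 0.00561) and Notch3 (−0.56, adjusted p 0.0183), and Pdgfrb was also lower after CFA in the mPFC (−0.62, adjusted p 0.0444; 0.632% of all genes called). Over the 3 treatments 2 mural genes were higher and 2 lower in the BNST than in the mPFC. Of 2 tested lymphocyte genes, Igkc was higher (3.51, adjusted p of edgeR 0.0137) and Ighm lower (−2.10, adjusted p 1.16e-06) in the control BNST. None of the tested neutrophil genes passed in any comparison, while 0.158% to 37.2% of all genes did. Of the 4 tested platelet genes Itga2b passed, higher in the BNST over the 3 treatments (0.87, adjusted p of edgeR 3.38e-05; 37.2% of all genes called).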
